A study of Mus musculus with 2 samples.

Results

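The Mir130 and Mir301 family of mouse microRNA (miRNA) genes was examined in the facial prominences of mouse embryos. Its members were taken by gene symbol as the hairpins Mir130a, Mir130b, Mir301 (also called Mir301a) and Mir301b, which share a seed, and make up 4 of the 1973 miRNA genes in the tables. All 4 were measured. The libraries hold small RNAs of healthy tissue from the B6NCrl strain at embryonic day 10.5, in 1 group of 2 biological replicates, each a pool of embryos of both sexes. Replicate 2 pooled 51 embryos and replicate 1 pooled 69 embryos. The labels name no treatment or mutant allele and only this stage and tissue. Genes were therefore compared with each other within the tissue, and the pools with each other.

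A miRNA is cut from a hairpin transcript and guides the silencing complex to messenger RNAs, mainly by pairing of its seed, bases 2 to 8, with sites in the message. miRNAs with 1 seed form a family that can repress overlapping sets of targets. Mir130a is known from human endothelial cells, where it represses the antiangiogenic homeobox genes GAX and HOXA5, and family members are known to act on the nuclear receptor PPARG. The facial prominences, which build the face and jaws, consist of neural crest mesenchyme, a covering epithelium and blood vessels, so a bulk library mixes the miRNAs of several cell types.

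The mature sequences that bear the family seed are shown first because the grouping rests on them. They are from RefSeq (GRCm38.p6), written 5′ to 3′ with the seed in capitals, and the hairpins of all 4 members were found there. The members differ outside the seed.
miR-130a-3p: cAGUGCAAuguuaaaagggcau
miR-130b-3p: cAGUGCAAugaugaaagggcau
miR-301a-3p: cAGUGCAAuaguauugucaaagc
miR-130c: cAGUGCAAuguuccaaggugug
Positions are counted from 1 at the 5′ end. miR-130a-3p and miR-130b-3p were identical at 20 of 22 bases, with the differences U11A and A13G. Over its first 22 bases miR-301a-3p, the product of Mir301, was identical to miR-130a-3p at 12. After the seed miR-301a-3p reads uaguauugucaaagc, where the hairpin of Mir301b reads ugguauugucaaagc, so these sequences are much closer. miR-130c, which has the seed but is no member here, was identical to miR-130a-3p at 16 of 22 bases.

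Mir301b is shown by its hairpin, with that of its genomic neighbour Mir130b, and capitals again mark the AGUGCAA of the seed.
Mir130b hairpin: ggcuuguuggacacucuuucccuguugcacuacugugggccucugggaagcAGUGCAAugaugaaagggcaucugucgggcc
Mir301b hairpin: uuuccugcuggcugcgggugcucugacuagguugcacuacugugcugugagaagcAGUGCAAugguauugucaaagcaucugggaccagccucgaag
AGUGCAA occurred once in each member's hairpin, starting at base 43 in Mir130a, base 52 in Mir130b, base 52 in Mir301 and base 56 in Mir301b, and in 12 of the 1005 RefSeq hairpins (1.19%). Its reverse complement, UUGCACU, occurred once in the other arm of Mir130b, Mir301 and Mir301b, starting at bases 25, 26 and 32, and nowhere in the hairpin of Mir130a. It was found in 14 of the 1005 hairpins (1.39%).

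The arms opposite the family seed carry seeds of their own, shown in capitals.
miR-130a-5p: gCUCUUUUcacauugugcuacu
miR-130b-5p: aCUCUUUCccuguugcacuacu
miR-301a-5p: gCUCUGACuuuauugcacuacu
miR-301b-5p: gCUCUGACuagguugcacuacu
The 5p products of Mir301 and Mir301b share a seed, those of Mir130a and Mir130b each have another, and the 5p products of Mir301 and Mir301b were identical at 19 of 22 bases. Reads of either arm were counted for the gene as a whole, so the levels below do not separate the seeds.

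The members lie on 3 chromosomes (mm10, positions of GENCODE M21). Mir130a (ENSMUSG00000065484.1) is on chromosome 2, 84741115 to 84741178, minus strand, between annotated genes. Its nearest annotated neighbours are Gm19426, on the same strand at a distance of 990 bases, and Ypel4, on the opposite strand at 2459 bases. Mir130b (ENSMUSG00000065572.1, chromosome 16, 17124061 to 17124142) and Mir301b (ENSMUSG00000076288.1, chromosome 16, 17124400 to 17124496) lie 257 bases apart on the minus strand. Each lies in an intron of the coding gene 2610318N02Rik. Mir301 (ENSMUSG00000065589.1, chromosome 11, 87113004 to 87113089, plus strand) lies in an intron of Ska2, whose protein acts at the kinetochore in cell division. All 3 host positions are on the host's strand.

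The libraries held 2853511 to 3517226 counts on the strand of a miRNA gene, and 376 genes had at least 10 counts in each library, called detected here. The tissue label was set against marker miRNAs. The epithelial list (7 of 7 detected) had a sum of 23965 CPM in replicate 2 and 28691 CPM in replicate 1, led by Mir205. The mesenchymal list (7 of 7 detected), led by Mir214, summed to 27041 and 30706 CPM in the same order. CPM is a gene's count scaled to the total of gene counts of its library (counts per 1000000). Mir126a, the matched endothelial marker, had 34369 CPM in replicate 2 and 31642 CPM in replicate 1. Lists of other cell types and regions were low, with sums in replicate 2 and replicate 1 of 630 and 723 CPM for neurons (2 of 6 matched detected, led by Mir137), 609 and 360 CPM for the Hox-expressing posterior axis (4 of 5, led by Mir10a), 419 and 429 CPM for leukocytes (2 of 2, led by Mir223), 205 and 420 CPM for erythroid cells (3 of 3, led by Mir451a), 10.8 and 26.3 CPM for striated muscle (1 of 4, led by Mir206, with Mir133a-1 and Mir133a-2 at 0) and 15.4 and 12.6 CPM for liver (Mir122 alone). In bulk tissue fewer cells of a type and less RNA per cell cannot be told apart. The counts also leave out reads that map to several places. Several lists, among them those for neurons and striated muscle, hold genes that are numbered copies of a miRNA, so their sums may be low estimates. A low sum for these lists, or a 0, therefore does not show that the cells are absent.

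Reads of the family were abundant in the tissue, and 2 of its 4 genes carried nearly all of its reads. The members together had 168518 counts in replicate 2 and 130256 counts in replicate 1, or 47912 and 45648 CPM. Their sum was 4.68% ± 0.160 of all gene counts (SD, n = 2), and in each library 2 single genes had a level above it. Scaled to all reads of the tables, unassigned ones included, the family had 19286 CPM in place of 46780 CPM. Values are read counts of short RNAs, so no scaling by gene length was applied, and small RNA libraries favour some sequences over others. Intervals cover counting error alone. PCR reads without molecular identifiers are not independent molecules, so the intervals may be too narrow even for that.

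Mir130a was the highest member. It had 32764 CPM in replicate 2 and 31010 CPM in replicate 1, a mean of 31887 ± 1240 CPM (SD, n = 2). It ranked 6 among all genes in both libraries. Mir130b, linked in human cells to the p53-induced gene TP53INP1, had 13420 CPM in replicate 2 and 12637 CPM in replicate 1 (13029 ± 554, SD, n = 2). Its rank was 15 in replicate 2 and 16 in replicate 1. The libraries gave nearly the same level for each of these genes and no overlap between the genes.

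The Mir301 genes were lower. Mir301, known in human tumour cells as an activator of NF-κB signalling, had 1483 CPM in replicate 2 and 1778 CPM in replicate 1 (1631 ± 209 CPM, SD, n = 2), at ranks 92 and 82. Mir301b had 863 counts in replicate 2 and 634 counts in replicate 1, or 245 and 222 CPM (234 ± 16.4 CPM, SD, n = 2), at ranks 164 and 166. Mir301b was thus near the middle of the detected genes, of which 56.1% had a lower mean level, against 98.4% below Mir130a, 95.7% below Mir130b and 77.9% below Mir301.

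**Figure D1:**
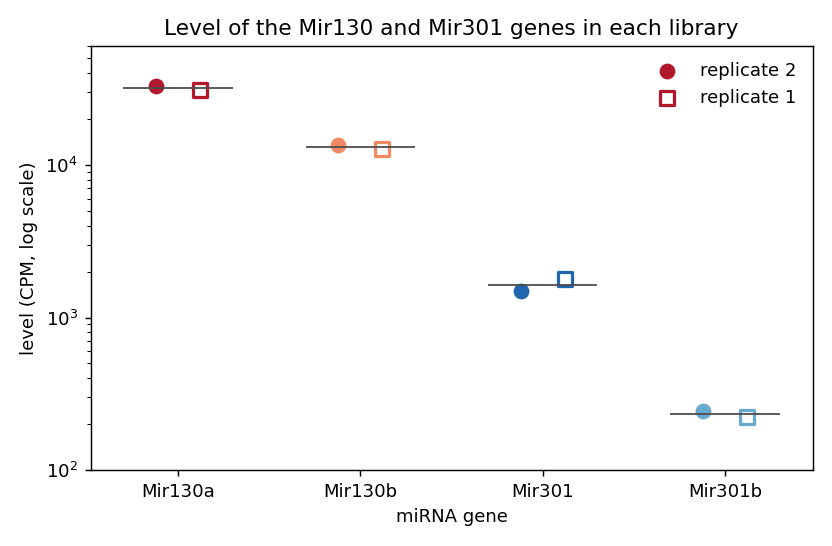
Level of each member in CPM on a log axis, with a filled circle for replicate 2, an open square for replicate 1 and a line at the mean of both. The levels run from 31887 CPM for Mir130a down to 234 CPM for Mir301b, and the libraries lie far closer together than neighbouring genes.

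The order Mir130a, Mir130b, Mir301, Mir301b held in both libraries. Each gap between neighbours was larger than the spread between the libraries. Mir130a had 2.44 times the CPM of Mir130b in replicate 2 and 2.45 times in replicate 1. Mir130b had 9.05 times the CPM of Mir301 in replicate 2 and 7.11 times in replicate 1, and Mir301 had 6.04 and 8.00 times that of Mir301b in the same order. The hairpins of Mir301 and Mir301b share a stretch of 16 bases, and whether reads of one were counted for the other was not tested. From the highest to the lowest member the range was 134-fold in replicate 2 and 139.6-fold in replicate 1. With 2 libraries no exact permutation test between genes can reach 0.05, so the order rests on these values.

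**Figure D2:**
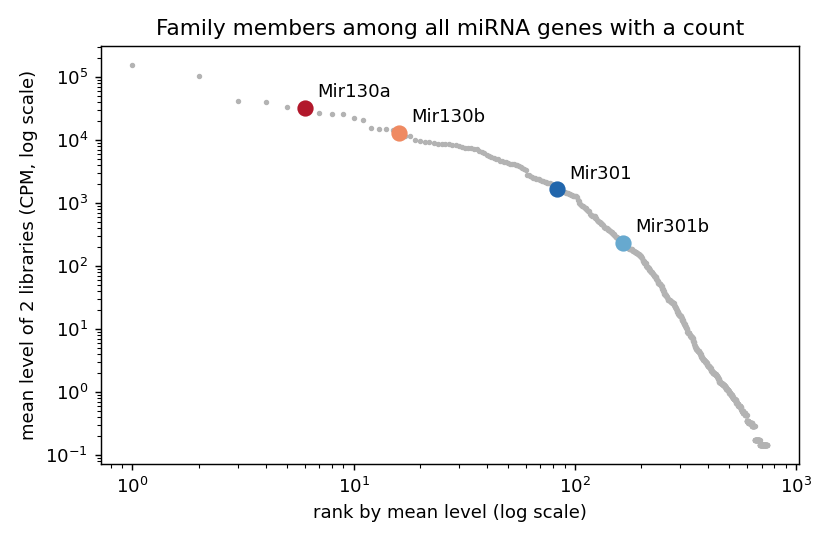
Mean level of the 2 libraries in CPM against rank, both on log axes, for every miRNA gene with a count (grey), with the members marked in colour. Mir130a at rank 6 and Mir130b at rank 16 lie on the shallow upper part of the curve, and Mir301 at rank 83 and Mir301b at rank 165 on its falling part.

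Within the family, Mir130a held 68.4% of the counts in replicate 2 (exact Clopper-Pearson 95% interval 68.2% to 68.6%) and 67.9% in replicate 1 (67.7% to 68.2%). Mir130b held 28.0% in replicate 2 (27.8% to 28.2%) and 27.7% in replicate 1 (27.4% to 27.9%). Mir301 held 3.10% in replicate 2 (3.01% to 3.18%) and 3.90% in replicate 1 (3.79% to 4.002%), and these intervals did not overlap. Mir301b held 0.512% in replicate 2 (0.479% to 0.547%) and 0.487% in replicate 1 (0.450% to 0.526%). The share of each member thus moved by under 1 percentage point between the pools. That of Mir301 moved most, also relative to its size.

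Mir130b and Mir301b lie close together within introns of 1 host gene, yet their levels were far apart. Mir130b had 54.7 times the CPM of Mir301b in replicate 2 and 56.9 times in replicate 1, a mean log2 ratio of 5.80. Unequal counts of neighbours are common in these libraries. Some of the pairs with larger ratios hold Mir19b-1 or Mir19b-2, which make the same mature miRNA. Others hold numbered copies too, namely Mirlet7c-1, in the pair with the largest ratio, and Mir181a-1 with Mir181b-1. Reads that match several places were assigned to no gene, so the ratios of such pairs may be overstated. Where both genes are copies, the ratio may be shifted either way. How far this raised the values over all pairs was not tested. Over 69 pairs of neighbouring hairpins within 1 kb on 1 strand, with at least 10 counts for both in each library, the median absolute log2 level ratio was 2.75, and 11 pairs, this one included, had a ratio at least as large as 5.80. The log2 ratio of Mir130b over Mir301b differed by 0.06 between the libraries, against a median of 0.16 over the pairs, and 17 pairs differed by less.

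**Figure D3:**
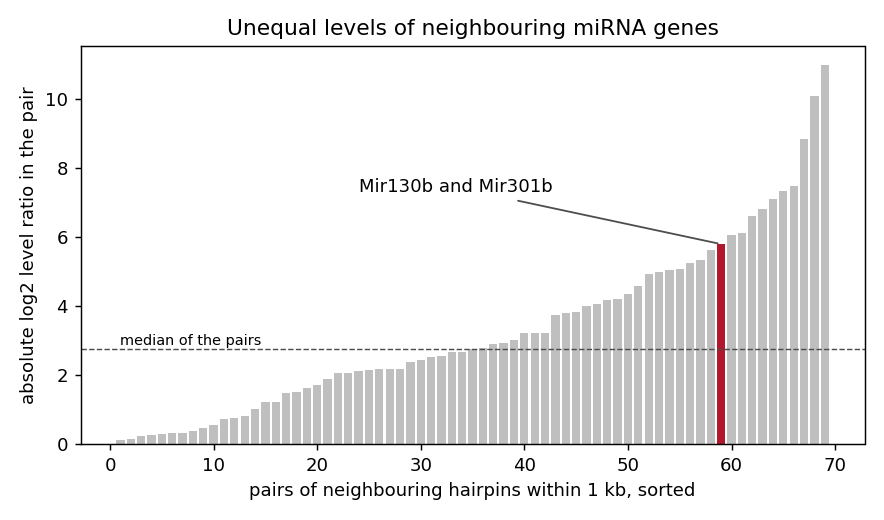
Absolute log2 level ratio, averaged over both libraries, of the 69 pairs of neighbouring miRNA hairpins within 1 kb, sorted from low to high, with the pair of Mir130b and Mir301b in red and the median of 2.75 as a dashed line. The red bar, at 5.80, stands in the upper part of the range with 10 pairs above it.

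Between the pools the members differed little. Mir130a was higher in replicate 2 by a log2 ratio of 0.08 (exact 95% counting interval 0.07 to 0.09, adjusted p = 6.78e-34), and Mir130b by 0.09 (0.07 to 0.11, adjusted p = 4.87e-17), both by a two-sided exact binomial test with Benjamini-Hochberg adjustment over 449 genes. Mir301 was lower in replicate 2, with a log2 ratio of -0.26 (-0.32 to -0.21, adjusted p = 2.49e-19 by the same exact test). Mir301b had a log2 ratio of 0.14 (-0.01 to 0.29) and did not pass (adjusted p = 0.131, exact binomial test).

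So 3 of 4 members passed, 2 higher and 1 lower in replicate 2, where 40.3% of all genes tested passed (20.0% higher and 20.3% lower). The share that passes grows with depth. Of the 84 genes with at least the 10290 counts of Mir301 over both libraries, 80 passed (95.2%), with a median absolute log2 ratio of 0.16. The test covers counting error and compares 2 replicate libraries, not conditions.

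The median log2 ratio of the members was 0.08, and that of the 376 detected genes 0.01. Taken singly, an absolute ratio at least as large as that of Mir301 was found in 40.2% of detected genes, and for Mir301b, Mir130b and Mir130a the shares were 65.4%, 76.9% and 78.5%. None of the members that passed differed by 1.5-fold.

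**Figure D4:**
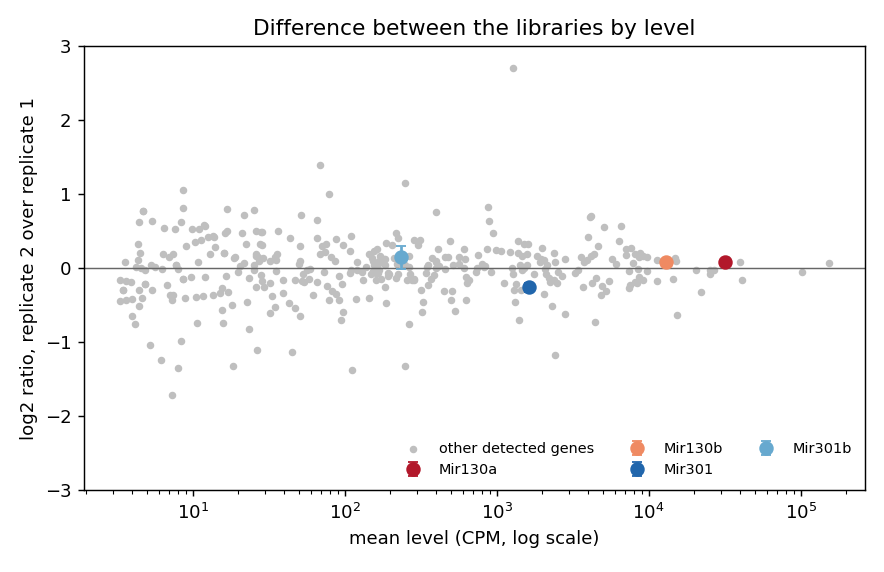
Log2 ratio of replicate 2 over replicate 1 against mean level in CPM (log axis) for the detected genes (grey) and the members (colour, with exact 95% counting intervals, which for the 3 higher members are close to the size of the point). Mir130a, Mir130b and Mir301b lie just above 0 and Mir301 at -0.26, all inside the cloud of the other genes.

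Mir301 differed between the pools in the other direction from Mir130a and Mir130b. The ratio of Mir130a to Mir301 was 22.1 in replicate 2 and 17.4 in replicate 1, an odds ratio of 1.27 (exact conditional 95% interval 1.22 to 1.32, counting error only). For Mir130b against Mir301 it was 1.27 (1.22 to 1.33). By contrast the odds ratio of Mir130a against Mir130b was 0.995 (0.979 to 1.01), and that of Mir130b against its neighbour Mir301b was 0.962 (0.866 to 1.07), both intervals including 1. Between the pools the endothelial marker Mir126a had a log2 ratio of 0.12, the mesenchymal sum -0.18 and the epithelial sum -0.26, replicate 2 over replicate 1. Their part in the members' differences was not tested.

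The genes nearest to each member in level, by distance of log2 CPM over the 2 libraries and among 376 detected genes, were of several kinds. Mir130a was nearest to Mir126a, with 34369 CPM in replicate 2 and 31642 CPM in replicate 1 (distance 0.07), then to Mir26b (distance 0.35). Mir130b was nearest to Mir106b, of the cluster in Mcm7, and to Mir214 (distances 0.27 and 0.28). Mir301 was nearest to Mir154 and Mir134 (0.22 each), both of the imprinted Dlk1-Dio3 region, and Mir301b to Mir700 and Mir223 (0.12 and 0.15). Over 2 libraries of 1 tissue this likeness is one of level.

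The 3 other genes with the family seed that were measured had no counted reads. Among the mature miRNAs taken from RefSeq, AGUGCAA stands at bases 2 to 8 in 7. They are miR-130a-3p, miR-130b-3p and miR-301a-3p of the members (Mir301b was placed by its hairpin), and miR-130c, miR-6341, miR-6389 and miR-721. The genes Mir130c, Mir6341 and Mir6389 had 0 counts in both libraries. For a gene without reads the limit was set at 3 counts, an approximate 95% bound for counting error. At these depths that is 0.853 CPM in replicate 2 and, in replicate 1, 1.05 CPM, far below the 234 CPM of the lowest member. This limit holds for reads that map to a single place, since reads mapping to several places were assigned to no gene. Mir721 was not among the genes counted, so its level is not known here.

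Genes whose seed overlaps that of the family by 6 bases had a far lower sum. Such seeds are shifted by a base, as in these examples with the seed in capitals.
miR-148a-3p: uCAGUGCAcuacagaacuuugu
miR-19a-3p: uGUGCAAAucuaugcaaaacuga
All 8 such genes in the tables were detected, and their sum was 1828 CPM in replicate 2 and 2004 CPM in replicate 1, so the family sum was 26.2 and 22.8 times theirs. This order turns with the width of the overlap: with 5 shared bases 34 genes enter, Mir17 among them, and their sum was 202760 CPM, so that the family had 0.231 times their level. The sum over 8 genes is also a low estimate, because reads of miR-19b-3p, which is made from both Mir19b-1 and Mir19b-2, can match several places and were then assigned to no gene. The highest were Mir350, with 535 CPM in replicate 2 and 723 CPM in replicate 1, and Mir148a, a miRNA known for repressing the DNA methyltransferase gene DNMT1 in human cells, with 595 and 534 CPM in the same order. Mir148b had 268 CPM in replicate 2 and 299.98 CPM in replicate 1, and Mir19a, a member of the Mir17-92 cluster, had 218 and 230 CPM. The remaining 4, Mir152, Mir19b-1, Mir19b-2 and Mir291b, had mean levels from 87.3 down to 12.2 CPM.

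Of these 8 genes 1 was higher and 3 were lower in replicate 2 by the exact binomial test, with a median log2 ratio of 0.01. By the same test 20.0% of all genes tested were higher and 20.3% lower. Mir148a was higher, with a log2 ratio of 0.15 (adjusted p = 0.00462, exact test). Mir350 at -0.43, Mir152 at -0.35 and Mir148b at -0.16 were lower. The longest stretches that a member's hairpin shared with another RefSeq hairpin were 17 bases in Mir130a (with Mir6389) and 16 in each of Mir130b, Mir301 and Mir301b. Mir301 and Mir301b shared theirs with each other.

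**Figure D5:**
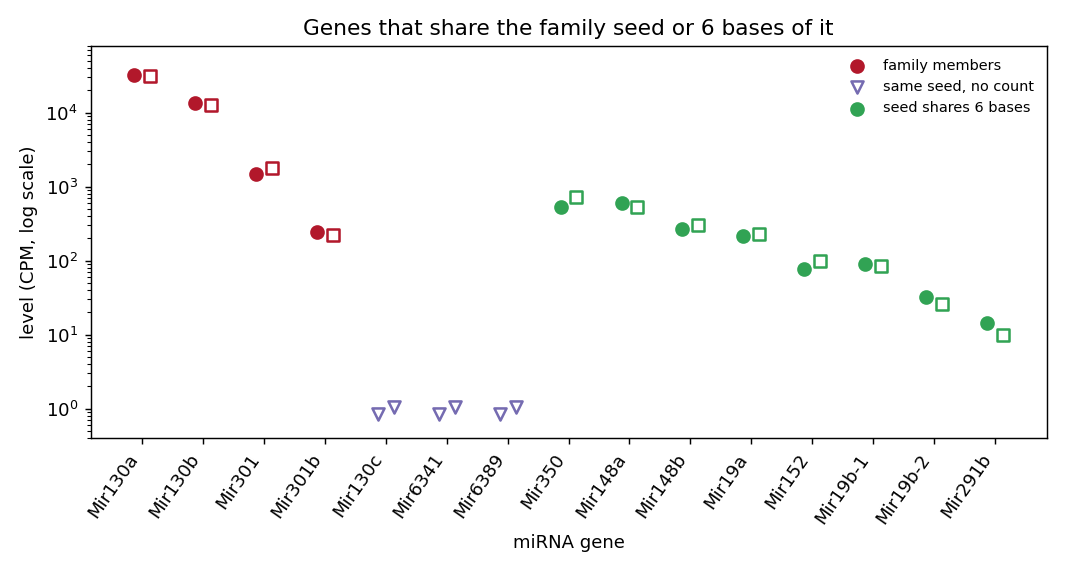
Level in CPM (log axis) in replicate 2 (filled) and replicate 1 (open) of the 4 members (red), of 3 further genes with the family seed (purple, triangles at the limit that a count of 0 allows) and of 8 genes whose seed shares 6 bases with it (green). Mir130a, Mir130b and Mir301 lie above every green gene, while Mir301b lies among them.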

How the data were processed

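Total RNA was made into libraries of fragments under 30 nt, per the labels, where the extraction protocol is marked as not provided. The deposited counts are raw reads per miRNA gene on mm10 with GENCODE M4, as the file lists beside the tables state. The aligner is not given in the sources used here. Each table has 3 count columns, with no header naming them. The first equals the sum of the others in every gene, and the second, with 97.6% of the first's gene reads in each library, was taken from these values as the count on the gene's own strand and used, without the 4 summary lines, which name no gene and held 59.3% of reads in replicate 2 and 58.2% in replicate 1. Reads mapping to several places (25.9% in replicate 2 and 27.6% in replicate 1) are not in the gene counts. Symbols came from GENCODE M21 by identifier without version (1894 of 1973 matched), and sequences from RefSeq (869 genes of the tables had a hairpin there).

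CPM, exact Clopper-Pearson intervals and the exact binomial test (genes with at least 10 counts in all, 449 genes, threshold 0.05) were computed with scipy 1.17.1, with TMM factors (edgeR 4.0.16) and size factors (DESeq2 1.42.0) as alternatives. Levels were also recomputed with the unstranded count and other totals. Replicate 2 against replicate 1 was also simulated (741 genes, counting noise only). Among genes with at least 10 counts in all, 46 of 65 changed 2-fold and 37 of 64 changed 1.5-fold were called. Of the unchanged genes 1 of 325 was called. The simulation holds no spread between pools. It therefore gives no rate of false calls for the real libraries, where 40.3% of genes passed. The members and lists were chosen with earlier results of these data known. Genes named are the members, genes with the seed, the 4 highest with an overlapping seed, the 2 nearest in level to each member, the leading markers and genes overlapping a member. Mir152, Mir19b-1, Mir19b-2, Mir291b, Mir133a-1, Mir133a-2, Mir17, Mirlet7c-1, Mir181a-1, Mir181b-1 and the neighbours of Mir130a lie outside that rule. They were named after their values were seen.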

Additional observations from a re-analysis of the deposited data

How the results depend on the processing

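Of 97 values recomputed, 82 kept their direction, call or size, 15 moved, and no log2 ratio between the libraries changed sign. With all reads as the total the family level was 19286 CPM, and without the highest gene in the total it was 55295 CPM, against 46780 CPM. The members' order, the calls and their directions held under the unstranded count, TMM, DESeq2 size factors and both other totals. Leaving out a replicate gave a family level of 45648 to 47912 CPM, a Mir130a share of 67.9% to 68.4%, a log2 ratio of Mir130b over Mir301b of 5.77 to 5.83, and a sum for overlapping seeds of 1828 to 2004 CPM. With a fold of at least 1.5 required, 42 genes differed between the libraries, against 181. With 5 shared bases in place of 6, the 34 overlapping genes summed to 202760 CPM, led by Mir17, so the family was then at 0.231 times that sum. Ratios between libraries cannot be had without a replicate. No paired analysis was possible because there is 1 group. Depth limits Mir301b most, with 634 to 863 counts. The genome was not searched for further copies of the mature sequences.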
